A study of Mus musculus with 16 samples.

Results

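Genes of protein folding and secretion in the endoplasmic reticulum (ER) were examined in mouse colon with and without colitis. They were chosen by a rule on gene names, with earlier results of these data known. The rule covers families of ER chaperones, disulphide isomerases, and translocon and signal peptidase subunits. It also covers regulators of the unfolded protein response, ER degradation factors, coat proteins and cargo receptors. The same name rule takes in heat shock proteins and J-domain proteins that work in the cytosol or in mitochondria, which were kept as separate groups. The rule found 52 genes among the 5171 distinct genes of the 4 tables of differential expression analysed here. Of these 52 genes, 40 belonged to the ER and the secretory pathway and 12 to the other groups. In the mouse annotation 182 protein coding genes have names that fit the rule, and the rest of them were in no table and were not analysed here. Hspa1a, Hspa8, Pdia6, Atf6, Herpud1, Sel1l and Derl3 are among those not analysed here.

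RNA was sequenced from whole colon of C57BL/6 mice that were either wild type (WT) or had Smarcad1, a chromatin remodelling ATPase, deleted by a Cre recombinase under the villin promoter (KO). That promoter is active in the intestinal epithelium, while the libraries also hold RNA of the immune cells, stroma and muscle of the gut wall. Control groups were 3 WT and 3 KO libraries from untreated mice, and colitis groups were 5 WT and 5 KO libraries from mice that drank 1% dextran sodium sulphate (DSS), which injures the epithelium of the colon, for 15 days. Mice of all 4 groups had received an enriched microbiota through soiled bedding and shared ventilation, and the labels give no age. The methods of the study say that ages were matched between cohorts and litters as far as could be, and the labels name no cage or litter.

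The tables give the mean of each group on the log2 scale of RPM, reads of a gene per 1000000 reads of a library, with no standard deviation, and the values by sample in a supplement of the study were not used here. Each change below is therefore a difference of 2 group means with no error of its own, and a gene was counted as having risen or fallen only where the authors' DESeq2 comparison listed it at an adjusted p-value of 0.05. The geometric mean library size lay between 8.005 M reads in WT colitis and 10.1 M reads in WT control. All 52 genes had a mean above 3 reads per library in each group, from 25.4 reads for the lowest mean to 17639 for the highest. For Smarcad1 itself, means were 5.77 (WT) and 4.59 (KO) log2 RPM without colitis and 5.68 and 4.55 with it, and it was listed as lower in KO in both conditions. The colon surface markers Car1, Slc26a3 and Aqp8 had means of 11.74, 11.07 and 10.76 log2 RPM in WT control. The RNA is of bulk tissue, so fewer cells of a type and less RNA per cell cannot be told apart.

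Proteins bound for secretion or for membranes enter the ER through the SEC61 channel, are folded there by chaperones and disulphide isomerases, and leave in vesicles with a COPII coat, while COPI vesicles bring escaped residents back. When unfolded proteins build up, the sensors IRE1, ATF6 and PERK start the unfolded protein response, whose transcription factors include XBP1, ATF6 and ATF4. Of these, XBP1 and ATF6 raise the transcription of chaperone and translocation genes. In the colon this machinery is best known from goblet cells, which secrete mucins, and from plasma cells of the lamina propria, which secrete antibodies.

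The best known control sequence of this response is the ER stress response element (ERSE), spelled CCAAT, then 9 bases of any kind, then CCACG, to which ATF6 binds together with the CCAAT factor NF-Y. It was searched on both strands in RefSeq promoter windows of 300 bases, 250 before and 50 after each transcription start, which were at hand for 41 of the 52 genes in 48 windows. Of all 32851 promoter windows, 0.119% held an ERSE. Calr, Canx, Creld2, Hsp90b1 and Hspa5 held one, and all 5 are ER chaperone genes. The stretches around these elements are shown as sequence, with no tie to expression. These 5 genes had lower KO than WT means in both conditions, as described after the changes in colitis. So did other genes, among them Hspe1, whose window held no ERSE. All are from GRCm38.p6, written 5′ to 3′ along the strand of the gene, with the CCAAT and CCACG boxes of the element in capitals, which read CGTGG and ATTGG where the element lies on the other strand. Hspa5 is shown from chr2:34772020-34772048 (plus strand), Calr from chr8:84847063-84847105 (minus), Canx from chr11:50325788-50325830 (minus), Creld2 from chr15:88819508-88819550 (plus) and Hsp90b1, whose window holds 2 elements, from chr10:86705521-86705668 (minus).
Hspa5: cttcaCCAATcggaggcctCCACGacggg
Calr: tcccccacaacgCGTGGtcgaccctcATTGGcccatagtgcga
Canx: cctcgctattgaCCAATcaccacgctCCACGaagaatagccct
Creld2: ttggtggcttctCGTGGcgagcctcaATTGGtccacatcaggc
Hsp90b1: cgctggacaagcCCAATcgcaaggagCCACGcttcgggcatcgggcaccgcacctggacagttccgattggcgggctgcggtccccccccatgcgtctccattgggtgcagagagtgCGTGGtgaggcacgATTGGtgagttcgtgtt
All but the Hspa5 stretch lie outside annotated exons. The Hspa5 stretch lies in the first exon of Hspa5 in GENCODE vM21, whose transcript begins upstream of the RefSeq start. The end of the element lay 46 bases before the RefSeq start in Hspa5, 107 in Creld2, 126 in Canx and 143 in Calr, and the elements of Hsp90b1 ended 193 and 88 bases before it. The shorter ERSE-II, spelled ATTGG, 1 base of any kind and CCACG, and present in 0.0365% of promoter windows, was found in Dnajb11 alone. The XBP1 site TGACGTGG was found in Sec24d and Copb1, against 0.676% of all windows. No gene of the 41 held the cyclic AMP response element TGACGTCA or the ATF4 type element TGATGNAAT, which 1.79% and 0.965% of all windows held. These matches are descriptions of sequence and were not tied to binding.

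Colitis was first compared with control within each genotype, to see how the secretory machinery moved with inflammation. In WT colon 19 of the 52 genes rose and 3 fell, which is 36.5% and 5.77% of them. Over all 5171 genes 36.6% were listed as higher and 26.4% as lower in this comparison. In KO colon 39 of the 52 genes rose and 8 fell, which is 75% and 15.4%, against 44.8% and 33.6% of all genes. Being listed in at least 1 table was a condition for entering the set, so these shares describe the listed genes of the families and not the families as a whole. Within the 40 genes of the ER and the secretory pathway, 16 rose and 1 fell in WT, and 35 rose and 2 fell in KO. Of the 12 other genes 3 rose and 2 fell in WT, and 4 rose and 6 fell in KO.

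The changes were small. The median change of the 52 genes was 0.25 log2 RPM in WT and 0.28 in KO, beside 0.13 and 0.19 for all 5171 genes, and 37 of 52 in WT and 38 of 52 in KO lay above that median of all genes. Only Hspa12a in WT and Dnajc6 in KO reached an absolute change of 1, whereas 31.4% of all genes did so in WT and 28.5% in KO. The change was above 0 in both genotypes for 40 of the 52 genes, against 52.9% of all genes, and below 0 in both for 10, against 44.6%. Sec23ip and Copb1 had opposite signs in WT and KO, against 2.49% of all genes, with WT changes of −0.03 and −0.04.

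**Figure D1:**
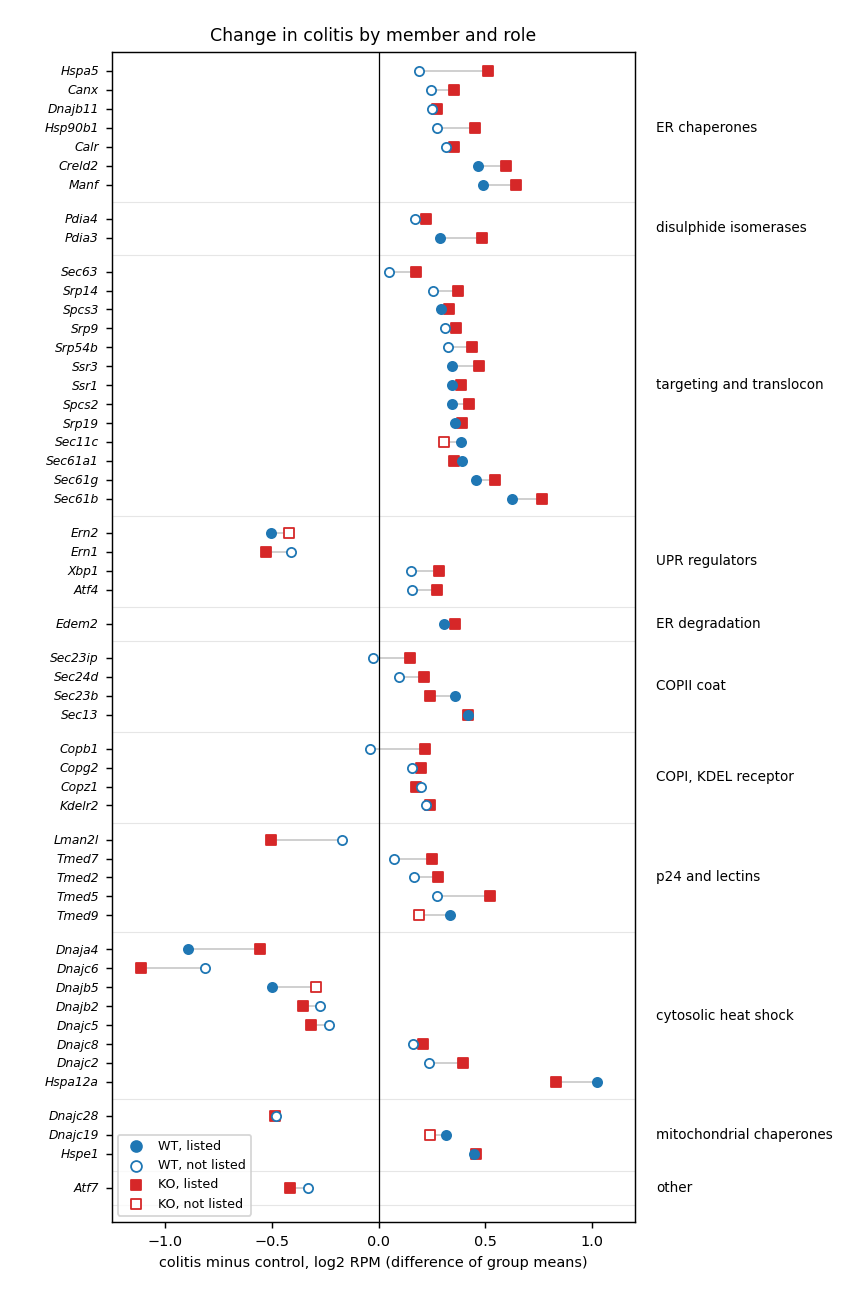
Change in colitis of each of the 52 genes, in log2 RPM as the colitis mean minus the control mean, grouped by role. Circles are WT and squares KO, filled where the authors' DESeq2 comparison listed the gene, and the grey line joins both. All genes of the chaperone, isomerase, translocon and ER degradation groups lie to the right of 0 in both genotypes, whereas Ern1, Ern2, Lman2l and most of the cytosolic heat shock genes lie to the left.

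Of 17 ER chaperone genes 7 were in a table. All 7 rose in KO, and Creld2 and Manf also rose in WT. Hspa5 encodes BiP, the main Hsp70 chaperone of the ER lumen. Its mean went from 10.50 to 10.69 log2 RPM in WT and from 10.05 to 10.56 in KO. The KO control mean was thus the lowest of the 4, and the change was 0.51 in KO, a rise of 42.7% in RPM, and 0.19 in WT, where the gene was not listed. Hsp90b1, the ER form of Hsp90, had means of 10.38 and 10.66 in WT and of 10.12 and 10.57 in KO, and rose in KO by 0.45. The WT change of Hsp90b1 was 0.27, and 15.7% of its exon bases overlap exons of 1810014B01Rik.

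Calr and Canx encode calreticulin and calnexin, the lectin chaperones that hold newly made glycoproteins. Calr went from 10.22 to 10.54 log2 RPM in WT and from 10.11 to 10.46 in KO, and Canx from 9.38 to 9.62 and from 9.17 to 9.52. Both were listed in KO alone, with changes of 0.35 in KO, while their WT changes were 0.32 and 0.24. Dnajb11, a J-domain partner of BiP, had changes of 0.25 in WT and 0.27 in KO and was likewise listed in KO alone. The largest changes of the group were those of the secreted ER stress proteins Manf and Creld2. Manf had means of 7.98 and 8.47 in WT and of 7.84 and 8.48 in KO, changes of 0.49 and 0.64. Creld2 had means of 6.62 and 7.09 in WT and of 6.33 and 6.93 in KO, changes of 0.46 and 0.60. Both were in the lists of both genotypes.

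Among the disulphide isomerases, which form and rearrange disulphide bonds, Pdia3 and Pdia4 were in a table. Pdia3 works together with calreticulin and calnexin on glycoproteins. It went from 10.38 to 10.67 log2 RPM in WT and from 10.32 to 10.80 in KO, and rose in both, by 0.29 and 0.48. Pdia4 rose in KO by 0.22, and its WT change of 0.17 was not listed.

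**Figure D2:**
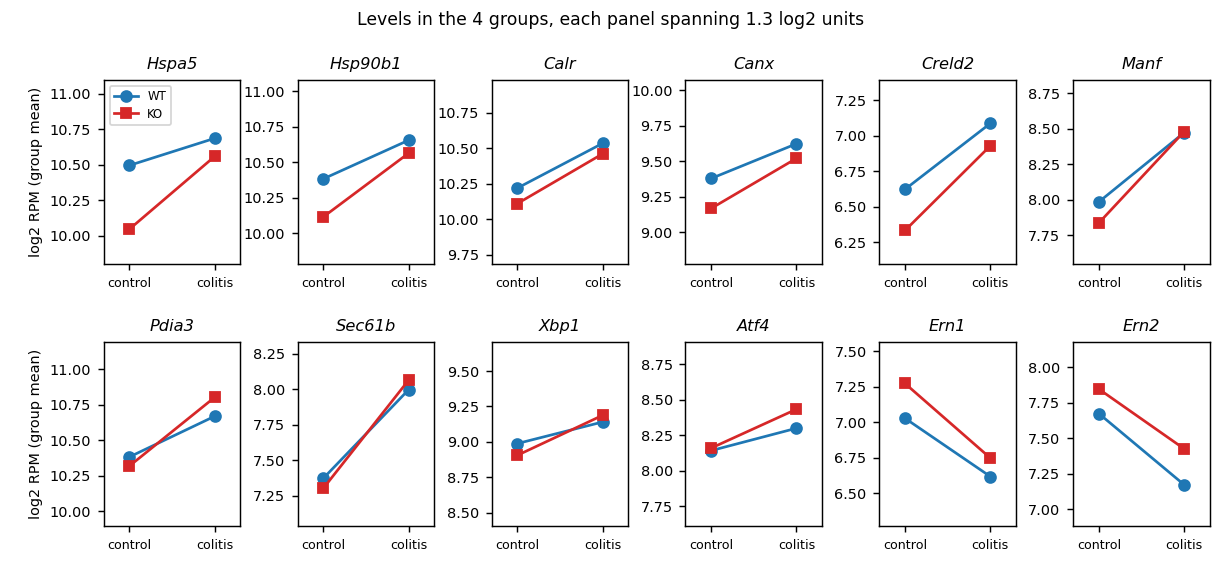
Group means in log2 RPM of 12 genes in control and colitis, WT as circles and KO as squares, with no error because the tables hold means alone. Each panel spans 1.3 log2 units but starts at another level, so slopes can be compared between panels and heights cannot. For Hspa5, Hsp90b1, Canx, Calr and Creld2 the KO means lie under the WT means in both conditions, and for Ern1 and Ern2 above them.

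Genes that bring proteins to the ER and across its membrane made up the largest group. This group held 13 genes of a family of 25, of which 9 rose in WT and 12 in KO, with none falling. Sec61b encodes the beta subunit of the SEC61 channel and had the largest change among all 40 ER and secretory genes. Its mean went from 7.37 to 7.997 log2 RPM in WT and from 7.30 to 8.06 in KO, which is 1.54-fold and 1.70-fold in RPM, and it rose in both. Sec61g, the gamma subunit, rose by 0.45 and 0.55, and Sec61a1, which forms the pore, by 0.39 and 0.35, from 8.99 in the control group of either genotype. Thus all 3 subunits of the channel rose in both genotypes.

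Ssr1 and Ssr3, subunits of the translocon-associated protein complex, rose by 0.34 each in WT and by 0.39 and 0.47 in KO. Signal peptidase cleaves the signal peptide inside the ER. Its subunits Spcs2 and Spcs3 rose in both genotypes, with changes of 0.34 and 0.29 in WT and of 0.42 and 0.33 in KO, while its catalytic subunit Sec11c rose in WT alone, by 0.39 against an unlisted 0.30 in KO. The signal recognition particle brings ribosomes to the ER membrane. Its subunit Srp19 rose by 0.36 in WT and 0.39 in KO. Srp9, Srp14 and Srp54b rose in KO alone, by 0.36, 0.37 and 0.44, with WT changes between 0.25 and 0.32. Srp54b has near-identical copies in the mouse genome, so its value is uncertain, and 14.2% of the exon bases of Srp9 overlap those of Gm17968. Sec63, which recruits BiP to the channel, had the smallest change of the group, 0.05 in WT and a rise of 0.17 in KO. Summed over the 13 genes, the level went from 2792 to 3559 RPM in WT, 1.27-fold, and from 2677 to 3539 RPM in KO, 1.32-fold.

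Regulators of the unfolded protein response did not move one way. Ern1 and Ern2 encode IRE1 alpha and IRE1 beta, the membrane sensors whose RNase splices the Xbp1 transcript, with Ern2 known from mucus-secreting epithelium. Ern2 had means of 7.67 and 7.17 log2 RPM in WT and of 7.85 and 7.43 in KO. It fell by 0.50 in WT, and its KO change of −0.42 was not listed. Ern1 had means of 7.03 and 6.62 in WT and of 7.27 and 6.75 in KO. It fell by 0.53 in KO, and its WT change of −0.41 was not listed. Both sensor genes thus had lower means in colitis in either genotype.

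Xbp1 and Atf4, transcription factors downstream of IRE1 and of PERK, rose in KO by 0.28 and 0.27, with unlisted WT changes of 0.15 and 0.16. Xbp1 went from 8.99 to 9.14 log2 RPM in WT and from 8.91 to 9.19 in KO, and Atf4 from 8.14 to 8.30 and from 8.16 to 8.43. Reads were summed over the gene, so spliced and unspliced Xbp1 were not separated. Atf7, a factor of the same name family with no established part in this response, fell in KO by 0.41, with a WT change of −0.33, and 11.7% of its exon bases overlap those of Gm28047. Edem2, which trims mannose residues of misfolded glycoproteins for degradation, was the 1 gene of 9 ER degradation genes in a table and rose by 0.30 in WT and 0.36 in KO.

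Markers of goblet cells and of plasma and B cells are given beside these changes because goblet and plasma cells are rich in ER. Of 10 goblet cell markers 3 were in a table, Clca1, Spink4 and Retnlb, and their summed level went from 17355 to 9230 RPM in WT colitis and from 10098 to 7888 RPM in KO colitis. That sum is carried by Clca1, which in WT control stood at 14.04 log2 RPM, beside 8.83 for Spink4 and 5.77 for Retnlb. Clca1 fell by 1.15 in WT and had an unlisted change of −0.57 in KO. Spink4 rose by 1.00 in WT and by 1.01 in KO, and Retnlb rose by 3.73 in WT and had an unlisted change of 4.73 in KO. Of 14 plasma and B cell markers 3 were in a table, Cd79b, Prdm1 and Tnfrsf13b, which summed to 27.3 RPM in WT control and 46.4 in WT colitis, and to 30.3 and 53.1 in KO. Jchain, Mzb1, Sdc1 and Tnfrsf17 of that list were in no table, so the sum does not report on plasma cells by itself. Macrophage markers (6 of 6 in a table) went from 605 to 1454 RPM in WT and from 636 to 1414 in KO, and colon surface epithelium markers (6 of 8) from 11979 to 5810 and from 11690 to 5436. Fibroblast markers (5 of 6) went from 2555 to 4935 RPM in WT and from 2479 to 3670 in KO. Neutrophil markers (7 of 7) went from 4.205 to 197 RPM in WT and from 4.25 to 52.4 RPM in KO, and T cell markers (5 of 5) from 17.6 to 54.4 RPM and from 16.9 to 57.3 RPM. Smooth muscle markers (2 of 6) went from 3619 to 2345 RPM in WT and from 3358 to 2316 RPM in KO, and no general epithelium marker of 6 and no endothelium marker of 4 was in a table. The KO control means of the neutrophil markers Cxcr2 and Mmp8 stood at the value given to a count of 0, and those of the other markers in a table did not. Under the floor of 3 reads per library lay the control means of Cxcr2, Mmp8, S100a8 and Trem1 in both genotypes, and that of S100a9 in KO. The neutrophil sums in control are thus uncertain. The part of these cell types in the changes of the ER genes was not tested.

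Vesicle coat and cargo receptor genes had median changes between 0.16 and 0.25 in both genotypes. The COPII coat carries cargo out of the ER. Sec13, of its outer layer, rose by 0.42 in both genotypes, and Sec23b, of the inner layer, by 0.36 in WT and 0.24 in KO. Sec24d, which binds cargo, and Sec23ip, which binds SEC23, rose in KO alone, by 0.21 and 0.15, with WT changes of 0.09 and −0.03. In the COPI group no gene was listed in WT and 4 of 4 rose in KO. Copb1, Copg2 and Copz1, subunits of the coat, rose by 0.22, 0.20 and 0.17, and Kdelr2, the receptor that returns KDEL-tagged chaperones to the ER, rose by 0.24. Their WT changes ran from −0.04 for Copb1 to 0.22 for Kdelr2, and 17.8% of the exon bases of Copg2 overlap those of Mest.

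The p24 proteins are cargo receptors between ER and Golgi. Tmed5 rose in KO by 0.52, from 6.20 to 6.72 log2 RPM, with an unlisted WT change of 0.28. Tmed2 and Tmed7 rose in KO by 0.28 and 0.25, with WT changes of 0.16 and 0.07. Tmed9 was listed in WT alone, where it rose by 0.33, and its KO change was 0.19. Lman2l, a lectin of the early secretory pathway, was the exception. It went from 5.52 to 5.02 log2 RPM in KO, a listed fall by 0.50, and from 5.40 to 5.23 in WT, where its change of −0.17 was not listed.

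Cytosolic heat shock proteins and J-domain proteins had medians below 0. Of 8 genes in a table, of a family of 52, 1 rose and 2 fell in WT, and 3 rose and 4 fell in KO, with median changes of −0.25 (WT) and −0.31 (KO). Dnaja4, a cochaperone of Hsp70, fell in both genotypes, from 5.01 to 4.11 log2 RPM in WT and from 4.89 to 4.34 in KO, but 44.1% of its exon bases overlap exons of Wdr61. Dnajc6 encodes auxilin, which strips clathrin from vesicles. Its level was the lowest of all 52 genes, 2.48 and 1.66 log2 RPM in WT and 2.54 and 1.43 in KO, and it fell in KO by 1.11, while the WT change of −0.81 was the largest unlisted one. Dnajb5 fell in WT alone, by 0.50, and Dnajb2 and Dnajc5, cochaperones known from neurons, fell in KO alone, by 0.35 and 0.32.

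Hspa12a, a distant member of the Hsp70 family, rose most of all 52 genes in both genotypes. Its mean went from 4.75 to 5.77 log2 RPM in WT and from 4.86 to 5.69 in KO, which is 2.03-fold and 1.78-fold. Dnajc2, a chaperone of nascent chains at the ribosome, and Dnajc8, a nuclear J-domain protein, rose in KO by 0.39 and 0.21. In mitochondria, Hspe1, the cochaperonin Hsp10, rose by 0.44 in WT and 0.46 in KO. Its RefSeq promoter window holds the heat shock element, spelled GAA, TTC and GAA with 2 bases of any kind between units, on both strands in overlapping copies, and no other of the 41 genes had a match. At least 1 match was held by 0.603% of all windows. The stretch chr1:55088054-55088081 (plus strand, GRCm38.p6), which on the other strand lies in an exon of a transcript of the neighbouring Hspd1, is shown with the GAA and TTC units of both copies in capitals.
Hspe1: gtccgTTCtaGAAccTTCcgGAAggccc
Dnajc19, of the protein import machinery of mitochondria, rose in WT alone, by 0.32, and Dnajc28 fell in KO by 0.48 with the same change of −0.48 in WT.

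Levels between genes were compared as log2 of the RPM divided by the exon length in kilobases (log2 RPKM), with exon lengths from GENCODE vM21 and as the mean over the 4 groups. The length is that of all annotated exons of a gene merged. It can exceed the length of the transcript in use, which lowers the level, so the order depends on it. Pdia3 (8.89), Calr (8.81), Hsp90b1 (8.42) and Hspa5 (8.37) had the highest levels, followed by Xbp1 (7.36), Tmed2 (7.35), Sec61b (7.34) and Kdelr2 (7.28). The means give no spread between libraries, so whether neighbours in this order differ cannot be said. At the lower end stood Lman2l (2.41), Srp54b (2.29), Hspa12a (2.07), Dnajc28 (1.91) and Dnajc6 (−0.54). Hspa12a, with the largest rise in both genotypes, and Dnajc6, with the largest fall in KO, were thus among those with the lowest levels per length, and Dnaja4, with the largest fall in WT, stood at 2.74.

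The lists of both genotypes were then set side by side. WT and KO changes share no library, and across the 52 genes, which are not independent replicates, their Pearson correlation was 0.935, and 0.893 across the 40 ER and secretory genes. In both lists were 17 genes, all 17 with the same sign, 16 rising and Dnaja4 falling. A further 30 genes were listed in KO alone and 5 in WT alone, namely Sec11c, Ern2, Tmed9, Dnajb5 and Dnajc19. Of the 30 genes listed in KO alone, 28 had the same sign in WT. Over all genes 2.49% had opposite signs, so shared signs are no trait of this set. How far the lists overlap over all genes was not counted here, so the 17, 30 and 5 genes are description alone. The KO list also holds more of all genes, 78.4% against 63.1% of the 5171. Being listed in 1 genotype does not show a difference between genotypes, which was not tested.

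How close the lists came to each other is seen at their edges. The smallest listed change was 0.29 in WT (Pdia3) and 0.15 in KO (Sec23ip). Of the 30 genes not listed in WT, 7 had a change at least as large as that of Pdia3, up to −0.81 for Dnajc6, and in KO 5 of 5 unlisted genes had a change at least as large as that of Sec23ip, up to −0.42 for Ern2. Changes above 0 in both genotypes and larger in KO were seen for 32 of the 52 genes, and all 32 were ER or secretory genes or Dnajc2, Dnajc8 and Hspe1. Over all genes this held for 24.8%. The 30 genes listed in KO alone entered the set through their KO change, and in 29 of them the absolute WT change was smaller. That way of entry favours a larger KO change, so the count of 32 is no evidence of a difference between genotypes. Across the 52 genes the KO change minus the WT change had a median of 0.05 and ran from −0.33 for Lman2l to 0.33 for Dnaja4, with 0.32 for Hspa5.

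**Figure D3:**
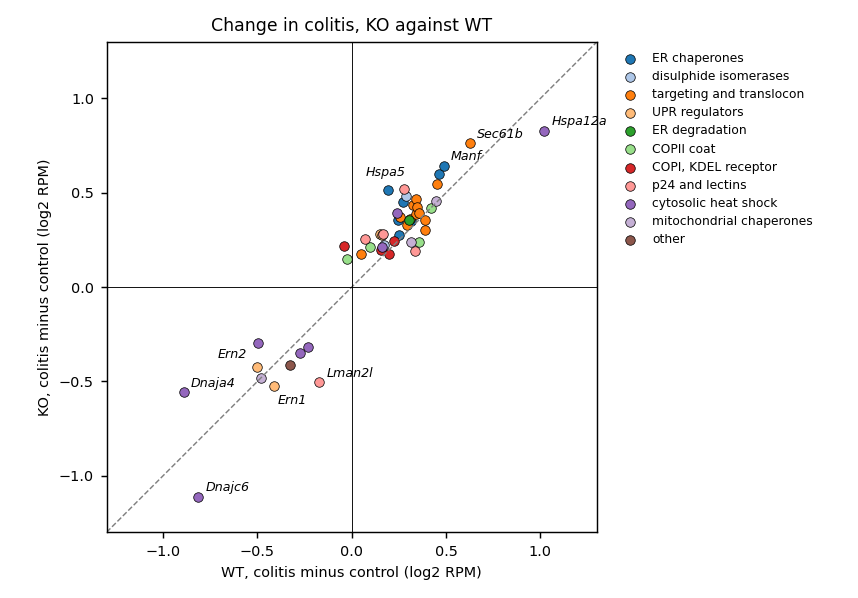
Change in colitis in KO (vertical axis) against that in WT (horizontal axis) for the 52 genes, in log2 RPM as colitis minus control mean and coloured by role, with the dashed line where both are equal. Most genes of the ER and the secretory pathway form a cluster between 0 and 0.8 on both axes, and Hspa5 lies farthest above the line among them.

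Genotypes were finally compared within each condition. None of the 52 genes was listed by the authors' DESeq2 in the comparison of KO with WT, neither in control nor in colitis. The control list holds 0.89% of all genes (0.522% higher and 0.367% lower in KO) and the colitis list 1.08% (0.696% and 0.387%), and p-values of unlisted genes were not analysed here, so the count of 0 says little about the set. The KO mean was under the WT mean in control for 36 of 52 genes, against 49% of all genes, and in colitis for 26 of 52, against 52.6%. The median KO minus WT difference was −0.06 log2 RPM in control and −0.002 in colitis.

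The ER chaperones had the lowest median difference of the groups of 2 or more genes in control. Their KO control mean was under the WT control mean in 7 of 7 genes, with a median of −0.21 log2 RPM. The differences were −0.45 for Hspa5, which is −26.8% in RPM, −0.29 for Creld2, −0.27 for Hsp90b1, −0.21 for Canx, −0.15 for Manf, −0.11 for Calr and −0.10 for Dnajb11. In colitis 6 of 7 were lower in KO, with a median of −0.09 and a range from −0.16 for Creld2 to 0.01 for Manf. Summed over the 7 genes, control levels were 5292 RPM (WT) and 4438 RPM (KO), and colitis levels 6387 and 5988 RPM. Outside the name rule, 6 of 6 listed heat shock cochaperones and 17 of 23 listed ER genes had a lower control mean in KO. The median differences were −0.17 and −0.06, and 49% of all genes had a lower control mean in KO. Most of these genes were listed in colitis against control in KO alone, which favours a low KO control mean, so they add no support. The KO control mean enters both the KO minus WT difference in control and the KO change in colitis. A low KO control mean thus gives a low difference and a large change at once, and neither is support for the other. Hspa5, Hsp90b1, Calr, Canx and Dnajb11 were in the set only through colitis against control in KO. That way of entry favours a low KO control mean, so 7 of 7 describes these listed genes and not ER chaperones as a whole.

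In control the medians of the other groups lay nearer to 0. In colitis, among groups of 2 or more genes, the regulators (0.13) and mitochondrial chaperones (−0.10) had medians farther from 0 than the ER chaperones. For targeting, translocon and signal peptidase genes the median was −0.08 in control and −0.02 in colitis, with 11 and 8 of 13 genes lower in KO. Among the regulators, Ern1 and Ern2 had higher KO means, by 0.25 and 0.17 in control and by 0.13 and 0.25 in colitis. Medians of the COPII group were −0.01 and 0.05, and of the COPI group 0.01 and 0.05. Hspe1 had a KO mean lower in both conditions, with differences of −0.21 and −0.20.

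The 6 genes with an ERSE or ERSE-II in the promoter window were all ER chaperones, and no window was at hand for Manf, the other gene of that group. Their KO minus WT difference was below 0 in 6 of 6 genes in both conditions, from −0.45 to −0.10 in control and from −0.16 to −0.07 in colitis. All 6 rose in KO colitis and 1 of them, Creld2, in WT colitis, with median changes of 0.40 and 0.26. Of the other 25 ER and secretory genes with a promoter window, 16 had a KO mean under the WT mean in control and 8 in colitis, with medians of −0.06 and 0.05, and 22 rose in KO and 10 in WT. The 6 genes are the ER chaperones counted above without Manf. All of them but Creld2 entered the set through colitis against control in KO alone. That way of entry favours both a rise in KO and a low KO control mean. The difference between both sets was not tested, and these counts do not tie the elements to the lower KO means.

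**Figure D4:**
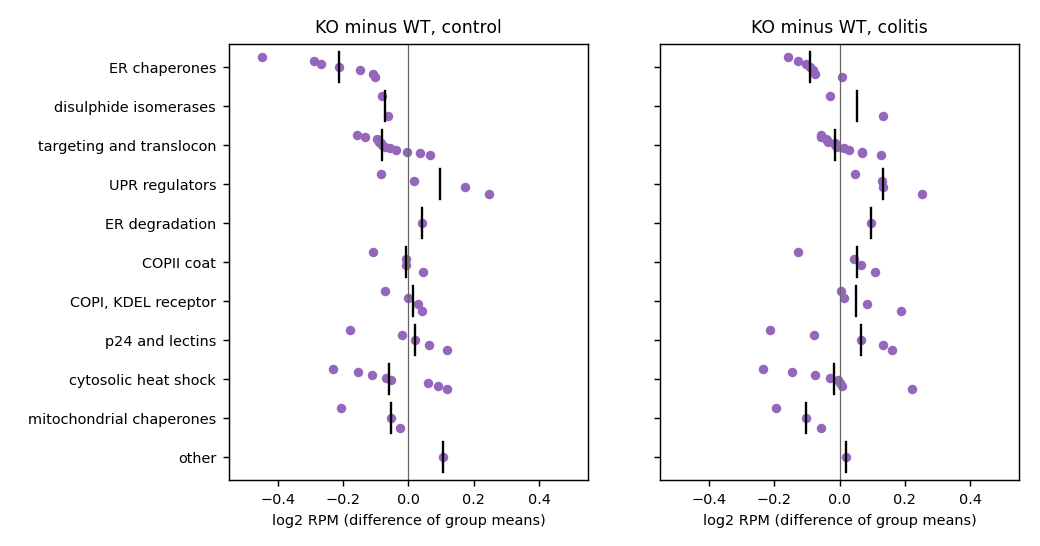
Difference of the KO and WT group means in control (left) and colitis (right), in log2 RPM, with a point for each gene and a bar for the median of its role group. The points of the 7 ER chaperones all lie under 0 in control and 6 of 7 in colitis, whereas the other groups lie on both sides of 0 or hold 3 or fewer genes, apart from the 4 regulators and the 4 COPI genes, which lie above 0 in colitis.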

How the data were processed

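RNA-seq was made from whole colon in 16 libraries, in 4 groups taken from the sample titles. Per the labels, total RNA was freed of DSS by precipitation with LiCl and sequenced as single-end reads on a BGISEQ500, whereas the methods of the study give paired-end reads. How reads were paired in counting was not settled here. The authors mapped reads to GRCm38 with HISAT2 2.1.0 and kept unique alignments. The authors removed reads over annotated ribosomal RNA, which had contaminated some samples, counted reads over exons in SeqMonk, and ran DESeq2 on raw counts for each pair of groups. Strand settings are not given in the sources used here.

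The 4 deposited tables hold the genes past an adjusted p-value of 0.05 in each comparison, with log2 values that the authors computed as group means of RPM, not corrected for length. Their column of adjusted p-values was not used. Columns of no sample of the series numbered 0. Design text of the series speaks of small intestine and the sample labels of colon, and the colon markers are given with the results.

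Genes and lists were chosen with earlier results of these data known. Changes are differences of group means, and no test was run, since single libraries were not analysed here. Library sizes were recovered from the lowest means, with a count of 0 taken as 0.9 reads. All of these means then lay on steps of whole reads (tolerance 1e-05 log2). The step was run on simulated data in which 0 was also set to 0.9 reads. That run checks the arithmetic and not whether 0.9 holds for the deposited means. A floor of 3 reads covers counting error only. Coordinates of 45 of 52 genes were those of GENCODE vM21. Genes named by rule were the core chaperones and regulators and the largest changes of each role group, and the rest were named so that every gene is accounted for. Alternatives were a minimum change, a filter on low means, a pseudocount of 1 RPM, centring on all genes, and the ER and secretory genes alone. Sequences are from RefSeq. Python 3.11.15 with pandas 2.3.3, numpy 2.4.6 and matplotlib 3.10.9 was used.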

Additional observations from a re-analysis of the deposited data

How the results depend on the processing

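Counts and medians were recomputed under 38 alternatives of 8 results, of which 29 kept the value within 0.1 log2 or 1.5-fold and 9 did not, and 0 changed sign beyond that. Counting only genes whose change reached 1 log2 unit, 1 gene rose and 0 fell in WT, and 0 rose and 1 fell in KO. With the ER and secretory genes alone, 1 fell in WT and 2 in KO. The median WT change was 0.15 as a mean over genes and 0.12 when centred on all genes, and the median KO change was 0.0898 when centred. The median KO minus WT difference in colitis was −0.002 and its mean 0.001, so it has no settled sign. Leaving out genes whose exons overlap others by over 10%, an alternative chosen after seeing the data, gave medians of 0.25 and 0.28.

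No paired analysis was possible because the deposited tables used here hold group means alone, and for the same reason no replicate was left out. Values by sample in a supplement of the study were not used here. Depth did not limit the comparison of means, since 50 of 52 genes had over 100 reads per library in each group, with Dnajc6 the lowest. The spread between mice was not used here, so no difference was set against it.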

Other observations

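ER genes outside the name rule were described in the same way. Of 69 such genes on a list 23 were in a table, with median changes of 0.23 (WT) and 0.31 (KO) log2 RPM. In WT 8 rose and 1 fell, beside 36.6% listed as higher and 26.4% as lower over all genes. In KO 20 rose and 1 fell, beside 44.8% and 33.6%. Most of the 23 were listed in KO alone, which raises the KO count. Asns, asparagine synthetase and a target of ATF4, rose by 0.60 in WT and 0.66 in KO. Sdf2l1, a cochaperone of BiP, rose by 0.48 and 0.58, and Fkbp11, a prolyl isomerase of secretory cells, rose in KO by 0.61 with an unlisted WT change of 0.45. Agr3, a disulphide isomerase relative of the epithelium, was listed as lower in both genotypes, from 1.14 to −1.68 log2 RPM in WT and from 0.07 to −2.27 in KO, where both colitis means are under the floor of 3 reads (−1.42 and −1.72). The lowest changes after Agr3 were those of Txndc11 in WT, 0.08 and not listed, and of Gosr2 in KO, 0.15 and not listed. Hyou1, the ER chaperone of the Hsp110 family, had KO minus WT differences of −0.30 in control and −0.19 in colitis and was listed in KO colitis alone.

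Of 20 heat shock cochaperones and chaperonin subunits outside the rule 6 were in a table, of which 2 rose in WT and 5 in KO. Over all genes 36.6% were listed as higher in WT and 44.8% in KO. Their KO minus WT difference in control was below 0 in 6 of 6 genes, with a median of −0.17, −0.36 for Cacybp and −0.33 for Ptges3. Cacybp, Ptges3, Cct2 and Cct8 were listed in colitis against control in KO alone, which favours a low KO control mean. Ptges3 and Cacybp, both partners of Hsp90, rose in KO by 0.47 and 0.46, with WT changes of 0.25 and 0.20. Serpinh1, the collagen chaperone of the ER, was the one gene of these lists that the authors' DESeq2 listed between genotypes. Its mean went from 7.68 to 8.19 log2 RPM in WT, where it rose by 0.51, and from 7.55 to 7.47 in KO, and the KO minus WT difference was −0.12 in control and a listed −0.72 in colitis. The 5 fibroblast markers in a table had a median difference of −0.43 between KO and WT in colitis, and their part in the value of Serpinh1 was not tested.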
